A study of Mus musculus with 4 samples.

Results

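The genes that control necroptosis, a form of programmed cell death in which the cell membrane is breached, were followed in mouse kidney. They were Zbp1, Ripk1, Ripk3, Mlkl, Casp8, Fadd, Cflar and Adar. The list was chosen by name, as the sensor that was deleted in this study and the proteins that act with or against it. All 8 were found among the 54532 genes counted, and all 8 had enough counts to be among the 14908 genes tested. Kidney RNA was sequenced from 2 wild-type (WT) mice and from 2 mice lacking Zbp1 (Zbp1-KO, labelled ZBP1-KO). Every animal, WT included, was on the C57BL/6J background and had been given 500 µL of pristane, a hydrocarbon oil that provokes lupus-like autoimmunity, by intraperitoneal injection at 8 weeks of age. The kidneys were collected 8 months later, and no kidney from a mouse without pristane was among the 4 libraries. The study described the mice of this experiment as female and the Zbp1-KO as a whole-body CRISPR-Cas9 deletion of exons 2 to 8. The comparison asked what loss of ZBP1 does to the kidney in this disease model, and here it is read for the machinery that ZBP1 engages.

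ZBP1 binds nucleic acids in the left-handed Z conformation through its Zα domains. It then recruits the kinase RIPK3 through a short interaction motif named RHIM, which RIPK1 also carries, and RIPK3 phosphorylates MLKL, the protein that permeabilizes the membrane. FADD, caspase-8 and its catalytically inactive relative cFLIP (encoded by Cflar) form the opposing arm, since caspase-8 cleaves the RIP kinases, and the same complex can also drive apoptosis. ADAR edits double-stranded RNA, and its interferon-induced isoform has a Zα domain of its own and restrains ZBP1. Zbp1, Mlkl and Adar are known to be induced by interferon, and ZBP1, RIPK3 and MLKL are most abundant in leukocytes rather than in tubule cells.

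The RHIM is the feature that ties the sensor to the kinases, so its coding sequence is shown first. Coding sequences of GENCODE M21 transcripts (GRCm38) were searched for codons of isoleucine or valine, then glutamine, then isoleucine, leucine or valine, then glycine, a pattern that 2.00% of 47852 coding transcripts held at least once. Zbp1-201, with 411 codons, held it at codons 192 to 195 and 248 to 251, Ripk1-201 at codons 528 to 531 of 656 and Ripk3-201 at codons 448 to 451 of 486. Capitals mark the 4 core codons within 54 bases of coding sequence.
Zbp1, codons 192 to 195: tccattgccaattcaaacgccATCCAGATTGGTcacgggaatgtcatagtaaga
Zbp1, codons 248 to 251: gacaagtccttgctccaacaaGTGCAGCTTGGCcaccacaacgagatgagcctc
Ripk1, codons 528 to 531: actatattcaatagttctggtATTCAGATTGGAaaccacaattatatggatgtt
Ripk3, codons 448 to 451: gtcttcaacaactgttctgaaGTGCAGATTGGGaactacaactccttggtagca
In Zbp1-201 the core codons lay in exons 4 and 5, both inside the part described as deleted.

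Zbp1 (ENSMUSG00000027514) lies on the minus strand of chromosome 2, from 173206612 to 173218923. Its transcript Zbp1-201 has 8 exons and 1989 exonic bases. If the study numbered the exons as in this transcript, exon 1, with 182 bases or 9.15% of the exonic sequence, is what the deletion leaves. That exon carries 34 coding bases, shown with the start codon in capitals.
Zbp1, coding part of exon 1: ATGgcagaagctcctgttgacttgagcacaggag
The whole coding sequence of Zbp1-201 has 1233 bases, so that 11 of the 411 codons are complete within exon 1. The deposited files give 1 count per gene, and so do not show which exons the remaining counts came from.

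**Figure D1:**
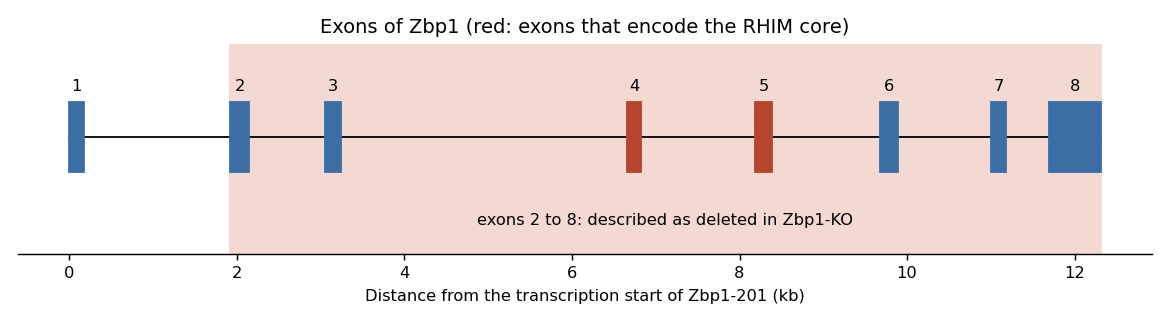
Exons of the transcript Zbp1-201 drawn to scale against the distance from its transcription start (kb). Boxes are the 8 exons, the shaded stretch spans exons 2 to 8, and red marks exons 4 and 5, which hold the RHIM core codons.

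The libraries held between 9878776 and 12921925 counts, of which mitochondrially encoded genes took 49.5% to 61.5%. The tissue label fitted the marker genes. The proximal tubule list (Slc34a1, Lrp2, Slc5a2 and Kap) summed to between 6963 and 10272 CPM (counts scaled to the TMM-normalized library size) in the 4 libraries, and the list for the loop of Henle, distal tubule and collecting duct (Umod, Slc12a1, Slc12a3 and Aqp2) to between 1979 and 2567 CPM. Fat cell genes moved with genotype, with a summed level of 78.6 and 104 CPM in WT and of 210 and 170 CPM in Zbp1-KO, and 4 of the 4 tested fat genes above WT in both Zbp1-KO libraries (Lep had no count in any library). Among all genes tested, 16% also had both Zbp1-KO libraries above both WT libraries. Plin1 was near the floor, with 3 counts for WT 1, 0 for WT 2, 14 for Zbp1-KO 1 and 21 for Zbp1-KO 2. Fabp4 made up most of the summed fat level in WT (62.8 and 80.5 CPM). In Zbp1-KO, Fabp4 was at 115 and 88.8 CPM and Cfd at 83.7 and 73.3 CPM. Of the 4 fat genes, 1 (Cfd) was called higher in the edgeR quasi-likelihood test, which called 2 of the 14908 genes higher. The part of fat in the levels of the 8 genes was not tested.

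Few or no Zbp1 transcripts were counted in the knockouts. WT 1 gave 94 and WT 2 gave 125 counts of Zbp1, while Zbp1-KO 1 gave 18 and Zbp1-KO 2 gave 0. In CPM these were 7.56, 10.7, 1.33 and 0, so the genotypes did not overlap and the targeted gene was low where the labels say it was deleted. With 0 counts, a level of up to 0.323 CPM (3 counts) was possible in Zbp1-KO 2. The level in Zbp1-KO 1 was 14.5% of the WT mean, with an exact 95% Poisson interval of 0.787 to 2.10 CPM, which lies above that limit. The WT mean was 9.13 ± 2.21 CPM and the Zbp1-KO mean 0.664 ± 0.939 CPM (SD, 2 libraries each), and the log2 fold change, Zbp1-KO over WT, was −3.64 ± 0.89 (SE). Its p was 0.00153 before and 0.999 after adjustment over all genes in the edgeR quasi-likelihood test, so Zbp1 was not called at an adjusted p under 0.05. The exact test of edgeR did call it, with an adjusted p of 0.0195. So did the quasi-likelihood fit without Zbp1-KO 1 (adjusted p = 0.0159), where the log2 fold change taken against the limit of 3 counts, a bound, was −4.82.

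**Figure D2:**
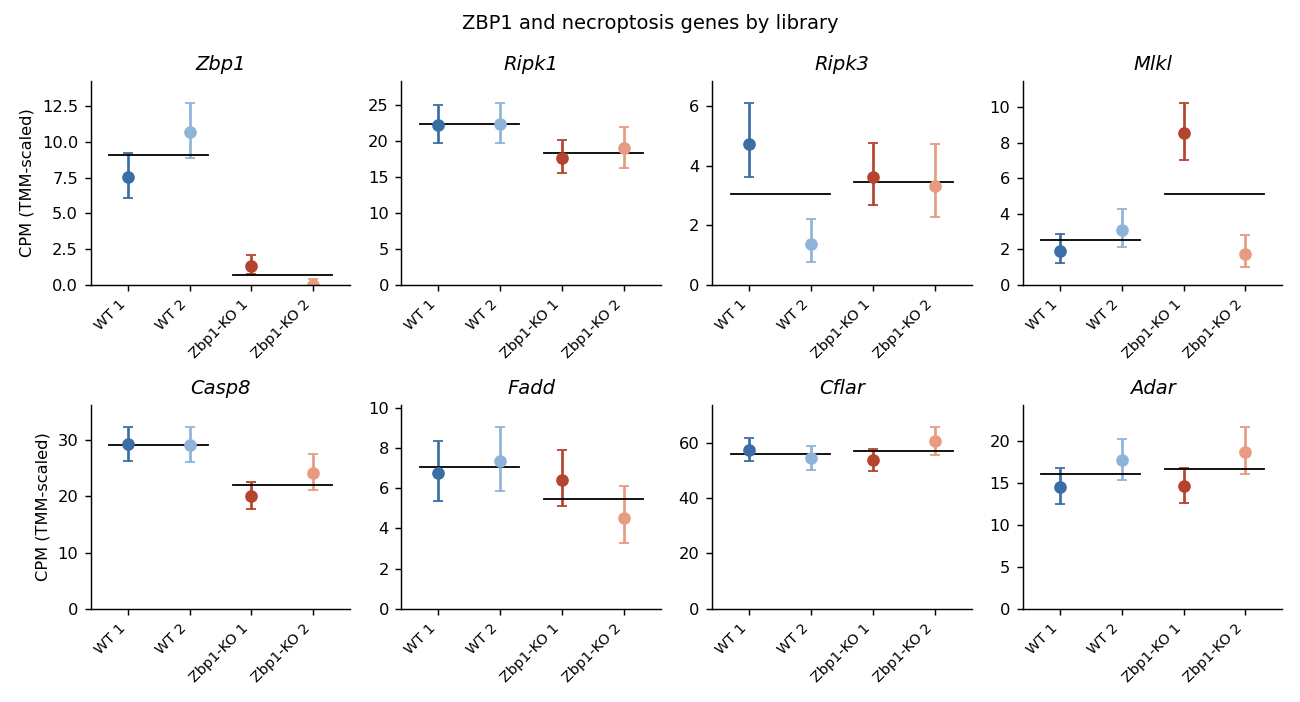
Level of each of the 8 genes in CPM (vertical axes, each starting at 0) in the 4 libraries. Points are libraries, bars are exact 95% Poisson intervals that cover counting error only, and black lines are genotype means. Zbp1 is separated by genotype, Mlkl stands high in Zbp1-KO 1 and Ripk3 low in WT 2.

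No other gene of the 8 was called by any test with all 4 libraries. At an adjusted p under 0.05 the edgeR quasi-likelihood test called 0 of the 8 higher and 0 lower, where 0.0134% of all genes tested were called higher and 0% lower. Without adjustment, 0 of the 8 were higher and 1, Zbp1, was lower below a p of 0.05, against 1.91% and 1.97% of all genes. The exact test of edgeR also called 1 lower and 0 higher, and DESeq2 and limma-voom called 0 in either direction. The median log2 fold change of the 8 was −0.13, and that of the 7 without Zbp1 was 0.03, beside −0.0061 over all genes tested. Both Zbp1-KO libraries lay below both WT libraries for 4 of the 8 (Zbp1, Ripk1, Casp8 and Fadd), against 16.3% of all genes. They lay above for 0 of the 8, against 16% of all genes.

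The kinase Ripk1 (ENSMUSG00000021408, chromosome 13, 34002363 to 34037147, plus strand), which scaffolds survival signalling as well as both death routes, measured 22.3 and 22.4 CPM in the WT kidneys, with 17.7 and 19.0 CPM in the knockouts. The WT pair was nearly identical, and both Zbp1-KO kidneys were below it, at 79.2% and 84.9% of the WT mean. The log2 fold change was −0.29 ± 0.24 (SE), and it was not called (adjusted p = 0.999, edgeR quasi-likelihood test). It ran from −0.34 to −0.24 when 1 library was left out. Of its 8344 exonic bases, 241 overlap Serpinb6a on the opposite strand and 511 overlap a pseudogene, Gm17084, on the same strand. How reads in these stretches were counted is not known.

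Ripk3 (ENSMUSG00000022221, chromosome 14, 55784995 to 55788865, minus strand), the kinase that ZBP1 recruits, differed most between the 2 WT kidneys. It measured 4.74 and 1.37 CPM in the WT kidneys, with 3.61 and 3.34 CPM in the knockouts, from 59, 16, 49 and 31 counts. WT 2 was low, and the other WT library was higher than both Zbp1-KO libraries. The exact 95% Poisson intervals of the WT libraries, 3.61 to 6.12 and 0.782 to 2.22 CPM, did not meet. On the log2 CPM scale the WT replicates differed by 1.68, which is more than for 95.5% of all genes tested, whose median was 0.32. The log2 fold change was 0.18 ± 0.73 (SE) and was not called (adjusted p = 0.999, edgeR quasi-likelihood test). It became −0.45 without WT 2 and 1.34 without WT 1, so a single WT library set its sign.

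The scores of 3 immune cell lists were lowest, like Ripk3, in WT 2, as was that of the leukocyte list (−0.38). Zbp1 and Mlkl, by contrast, were higher in WT 2 (10.7 and 3.08 CPM) than in WT 1 (7.56 and 1.93 CPM). The score of a list (mean over its genes of log2 CPM minus the gene's mean over the 4 libraries) was −1.15 for neutrophils, −0.85 for T cells and −0.42 for macrophages in WT 2, the lowest of the 4 libraries for each list. In WT 1 these scores were 1.09, −0.27 and 0.11. The summed levels in WT against Zbp1-KO were 25.1 and 5.13 CPM against 8.996 and 12.6 CPM for the neutrophil list, 342 and 222 CPM against 322 and 325 CPM for the macrophage list, and 9.49 and 7.36 CPM against 17.8 and 14.97 CPM for the T cell list. The scores used the markers that were tested, 3 of 4 for neutrophils, 6 of 6 for macrophages and 5 of 6 for T cells. Single markers were lowest in WT 2 for 2 of these 3, 5 of 6 and 3 of 5 genes, respectively, and the B and plasma cell list had its lowest score in Zbp1-KO 1 (−0.29, against −0.16 in WT 2). Every macrophage and T cell marker had counts in all 4 libraries, and the neutrophil gene Retnlg had no count in Zbp1-KO 1. Some counts in WT 2 were near the floor, with 1 for Cd3d, 7 for Cd3g and 6 for S100a8, so the prior count of 2 weighs on the T cell and neutrophil scores. The part of immune cells in the Ripk3 level was not tested, and in whole kidney fewer cells of a type cannot be told apart from less RNA per cell.

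Mlkl (ENSMUSG00000012519, chromosome 8, 111311797 to 111338177, minus strand), the executioner of necroptosis, stood high in a single Zbp1-KO kidney. Its counts were 24 and 36 in WT against 116 and 16 in the knockouts, or 1.93 and 3.08 CPM against 8.55 and 1.72 CPM. Zbp1-KO 1 was at 342% of the WT mean, and Zbp1-KO 2, at 68.8%, was the lowest of the 4 libraries. Counting error does not span that gap, since the exact 95% Poisson intervals were 7.07 to 10.3 CPM and 0.985 to 2.80 CPM. The Zbp1-KO replicates differed by 2.20 on the log2 CPM scale, more than for 95.02% of all genes tested, whose median was 0.39. The log2 fold change between genotypes was 1.05 ± 0.75 (SE) and was not called (adjusted p = 0.999, edgeR quasi-likelihood test). It was −0.54 without Zbp1-KO 1 and 1.77 without Zbp1-KO 2.

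The scores of interferon-stimulated genes and of leukocyte markers were also highest in Zbp1-KO 1. A reference list of 14 interferon-stimulated genes, all tested, had scores of −0.33 and −0.021 in WT and of 0.38 and −0.035 in Zbp1-KO. Of the 14, 9 were highest in Zbp1-KO 1, while Stat2 and Oas1a were lowest there and Isg15 was below both WT libraries. The median log2 fold change was 0.38. The edgeR quasi-likelihood test called 0 of the 14, and Rsad2, Oas2 and Usp18 (3 of 14) were higher below an unadjusted p of 0.05, against 1.91% of all genes. In this list the largest fold change up was that of Cxcl10, a chemokine gene, at 2.90 and 12.7 CPM in the WT kidneys and at 32.3 and 4.42 CPM in the knockouts, the same order of Zbp1-KO libraries as for Mlkl. The largest down was that of Isg15, which encodes a ubiquitin-like protein, with a log2 fold change of −0.52 ± 0.32 (SE). The leukocyte list (Ptprc, Cd52, Coro1a and Laptm5, 4 of 4 tested) had scores of −0.016 and −0.38 in WT and of 0.45 and −0.054 in Zbp1-KO, with summed levels of 83.2 and 67.3 CPM against 114 and 83.9 CPM and no marker at 0, and 4 of the 4 were highest in Zbp1-KO 1. Of the 4 proximal tubule markers, Slc5a2 (8.48 CPM) and Slc34a1 (529 CPM) were lowest in Zbp1-KO 1, Kap (9402 CPM) was highest there and Lrp2 (332 CPM) lay within the range of the others. Other lists also scored highest in Zbp1-KO 1, namely fat (0.96), T cell (0.66), macrophage (0.21) and loop, distal and collecting duct (0.20). The proximal tubule (−0.49) and B and plasma cell (−0.29) lists scored lowest there. In the pathway groups described below, the genes highest in Zbp1-KO 1 ran from 0 of 2 (alarmins) to 4 of 6 (upstream ligands and receptors). The share of all genes tested that were highest in Zbp1-KO 1 was not computed. Adar, also induced by interferon, measured 14.6 CPM there, near its lowest. Zbp1-KO 1 also had the lowest mitochondrial share, 49.5%. The part of the interferon genes, of cell content and of such library differences in the Mlkl level was not tested.

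**Figure D3:**
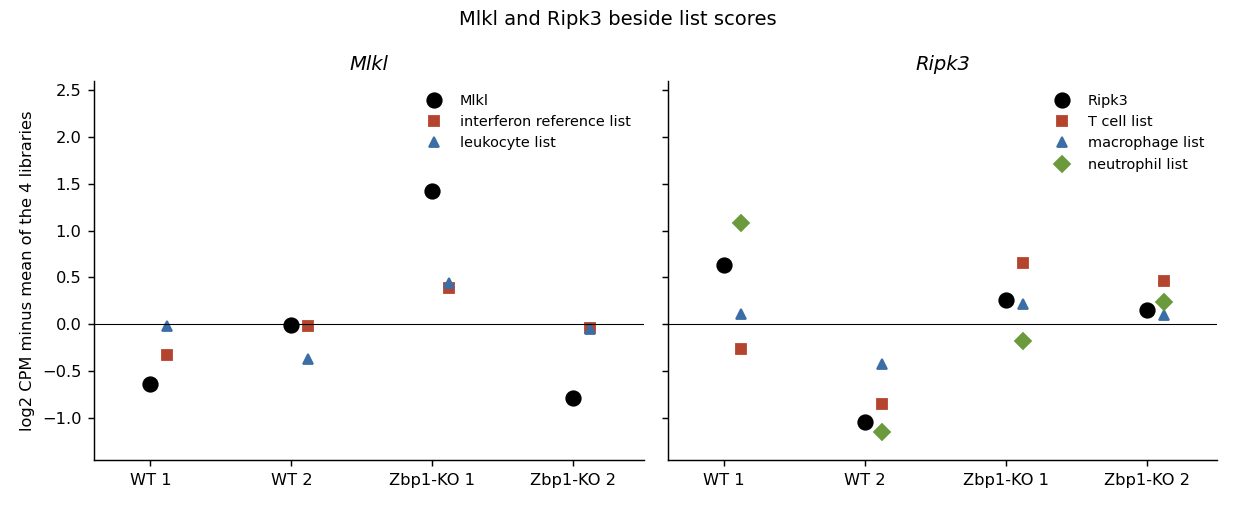
Mlkl (left) and Ripk3 (right) in each library as log2 CPM minus the mean of the 4 libraries, black circles, beside the scores of gene lists on the same scale, coloured symbols. Mlkl and the scores of the interferon and leukocyte lists are highest in Zbp1-KO 1, while Ripk3 and the scores of the T cell, macrophage and neutrophil lists are lowest in WT 2.

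Casp8 (ENSMUSG00000026029, chromosome 1, 58795374 to 58847503, plus strand), the protease that holds necroptosis in check, measured 29.3 and 29.2 CPM in the WT kidneys, with 20.0 and 24.2 CPM in the knockouts. The WT kidneys agreed within counting error, and both Zbp1-KO kidneys were lower, at 68.4% and 82.9% of the WT mean. The means were 29.2 ± 0.0770 CPM and 22.1 ± 3.01 CPM (SD, 2 libraries each). The log2 fold change of −0.40 ± 0.23 (SE) was not called (adjusted p = 0.999, edgeR quasi-likelihood test). It kept its sign with any 1 library left out, from −0.55 to −0.27.

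Fadd (ENSMUSG00000031077, chromosome 7, 144577318 to 144582463, minus strand), the adaptor that brings caspase-8 to RIPK1, measured 6.76 and 7.36 CPM in the WT kidneys, with 6.42 and 4.52 CPM in the knockouts. The genotypes did not overlap, but Zbp1-KO 1 lay within the 95% Poisson interval of WT 1 (5.39 to 8.36 CPM). The log2 fold change was −0.36 ± 0.45 (SE) and was not called either (adjusted p = 0.999, edgeR quasi-likelihood test). It ran from −0.64 without Zbp1-KO 1 to −0.14 without Zbp1-KO 2. An antisense gene, Faddos, shares 239 of its 3903 exonic bases.

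Cflar (ENSMUSG00000026031, chromosome 1, 58711508 to 58758884, plus strand), which lies beside Casp8 and encodes the inhibitor cFLIP, measured 57.3 and 54.3 CPM in the WT kidneys, with 53.7 and 60.5 CPM in the knockouts. The genotypes overlapped fully, and the log2 fold change was 0.03 ± 0.19 (SE). The ratio of Cflar to Casp8, per kilobase of exon, was 0.447 and 0.425 in WT and 0.613 and 0.570 in Zbp1-KO, so that it was higher in both Zbp1-KO kidneys. With 2 libraries per genotype an exact two-sided permutation test cannot give a p below 0.333, which is the value it gave, and this ratio was picked after the levels had been seen.

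Adar (ENSMUSG00000027951, chromosome 3, 89715022 to 89753446, plus strand), the editing enzyme that limits Z-RNA, measured 14.6 and 17.7 CPM in the WT kidneys, with 14.6 and 18.7 CPM in the knockouts. Each genotype had a lower and a higher library at almost the same levels. The log2 fold change was 0.04 ± 0.28 (SE), and the sign changed when WT 1 (−0.090) or Zbp1-KO 2 (−0.14) was left out. Chrnb2 on the opposite strand overlaps 1365 of its 8118 exonic bases, and the counts do not separate its interferon-induced isoform from the constitutive one.

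Levels were set against each other per kilobase of exon, with all exons of a gene merged. The order by median over the 4 libraries was Casp8 (9.23 CPM per kb), Cflar (4.41), Ripk1 (2.47), Adar (1.99), Fadd (1.69), Ripk3 (1.52), Zbp1 (1.26) and Mlkl (1.09). Casp8 and Cflar were first and second in each of the 4 libraries, and their ranges did not meet each other or that of Ripk1. From Ripk1 down, the ranges of neighbours overlapped. The place of Zbp1 differed by genotype, with 2.14 and 3.03 CPM per kb in WT and 0.376 and 0 in Zbp1-KO. Mlkl was the third of the 8 in Zbp1-KO 1, with 3.71 CPM per kb, and among the lowest 2 in the other libraries. Merged exons include long untranslated and rarely used exons. With the median length of the protein-coding transcripts in place of merged exons, an alternative chosen after the data had been seen, Cflar (21.6 CPM per kb) came before Casp8 (14.2) in every library. The range of Ripk1 then lay apart from that of Adar, Zbp1 moved up to place 5 and Fadd down to place 7, and Mlkl had rank 4 in Zbp1-KO 1, so the order depends on the length taken.

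**Figure D4:**
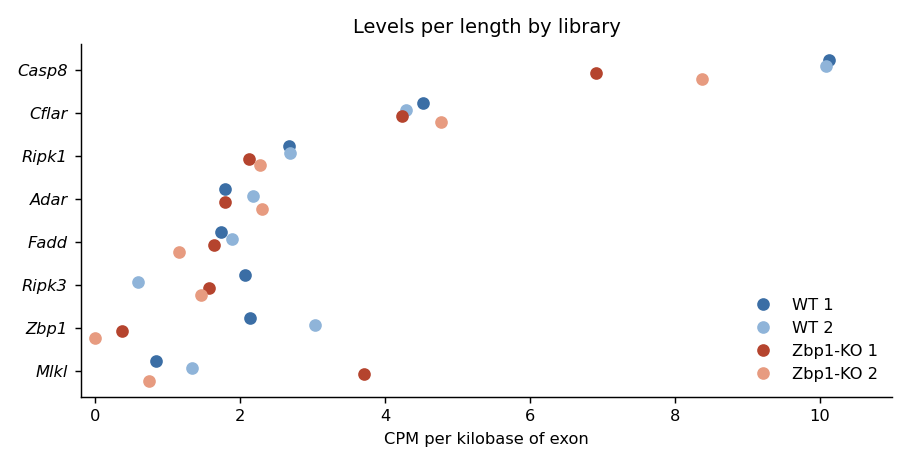
Level of each gene in CPM per kilobase of merged exons (horizontal axis) in the 4 libraries, ordered by the median. Casp8 lies between 6.91 and 10.1 and Cflar between 4.24 and 4.78, while Mlkl reaches 3.71 in Zbp1-KO 1.

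Since the interferon score was highest in the library with the highest Mlkl, the promoters were searched for interferon elements. RefSeq windows of GRCm38.p6, from 250 bases before to 50 bases after the transcription start, were found for 7 of the 8, in 10 windows. Zbp1 had no window. The core of the interferon-stimulated response element was searched as GAAA repeated with any 2 bases between, and on the other strand as TTTC repeated with any 2 bases between. It was found in 3.44% of all 32851 windows and in 2 of these 10, a window of Ripk1 and that of Cflar. The gamma-activated site was searched as TTC and GAA with any 3 bases between, which reads the same on both strands. It was found in 8.30% of all windows and in 2 of the 10, one of Ripk1 and one of Adar. The window of Mlkl held neither. Windows of Cxcl10, Ifit3 and Rsad2, picked by hand from the interferon reference list, were searched as well. Each held the response element, 213 bases before the start in Cxcl10, 156 and 122 in Ifit3 and 120 in Rsad2. The windows of Mlkl, which like Cxcl10 was highest in Zbp1-KO 1, and of Ripk1 and Cflar, which were not, are shown with capitals for the response element, which begins 5 bases before the start in Ripk1 and 6 bases after it in Cflar.
Mlkl, chr8:111338156-111338455, minus strand: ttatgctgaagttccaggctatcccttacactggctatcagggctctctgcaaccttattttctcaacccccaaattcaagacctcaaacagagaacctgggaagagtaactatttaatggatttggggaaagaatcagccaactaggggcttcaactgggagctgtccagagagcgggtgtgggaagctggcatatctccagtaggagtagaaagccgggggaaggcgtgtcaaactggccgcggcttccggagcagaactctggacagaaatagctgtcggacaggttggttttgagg
Ripk1, chr13:34002624-34002923, plus strand: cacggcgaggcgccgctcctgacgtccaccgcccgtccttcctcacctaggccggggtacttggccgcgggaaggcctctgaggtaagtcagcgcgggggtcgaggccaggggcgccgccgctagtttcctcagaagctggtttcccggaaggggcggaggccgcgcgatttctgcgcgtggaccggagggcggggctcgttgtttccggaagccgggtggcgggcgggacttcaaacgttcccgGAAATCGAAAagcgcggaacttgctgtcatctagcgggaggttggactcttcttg
Cflar, chr1:58711241-58711540, plus strand: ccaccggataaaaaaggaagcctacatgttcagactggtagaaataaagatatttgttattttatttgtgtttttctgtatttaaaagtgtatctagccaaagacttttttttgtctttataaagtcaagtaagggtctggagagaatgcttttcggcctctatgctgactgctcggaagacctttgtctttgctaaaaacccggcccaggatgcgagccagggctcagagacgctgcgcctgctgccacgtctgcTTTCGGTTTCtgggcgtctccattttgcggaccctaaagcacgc
A match describes these letters only, and no match says nothing of other sites or of elements outside the window.

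Patterns over the 4 libraries most like those of Zbp1 and Mlkl were sought among 14209 tested genes with a mean of at least 1 CPM, by the root mean square difference of centred log2 CPM. For Mlkl these included Ncmap (0.0679) and Hcn2 (0.116), both highest in Zbp1-KO 1, with 38 and 34 counts there. In WT 1, WT 2 and Zbp1-KO 2, Ncmap had 8, 12 and 5 counts and Hcn2 had 6, 11 and 5. The prior count of 2 therefore weighs on these distances. For Zbp1 the most alike were Kcnh2 (0.793), Snai1 (0.819) and Adgrf1 (0.838), each with 0 counts in Zbp1-KO 2. The value of Zbp1 in Zbp1-KO 2 is set by the prior count added to 0 counts, so its distances depend on that floor.

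Genes within 250 kb of Zbp1 were examined because they share the edited chromosome. Of 11 other annotated genes, 4 passed the filter and 0 were called. Pmepa1, whose product dampens TGF-β signalling and whose 3′ end lies 5.54 kb from Zbp1, measured 26.6 and 28.0 CPM in the WT kidneys, with 28.4 and 26.9 CPM in the knockouts. Pck1, the rate-limiting enzyme gene of gluconeogenesis, measured 242 and 235 CPM against 231 and 275 CPM. Both overlapped between genotypes. Rae1, an mRNA export factor gene 191 kb away, measured 18.3 and 20.9 CPM in the WT kidneys, with 15.3 and 9.05 CPM in the knockouts. Its log2 fold change was −0.68 ± 0.31 (SE), and it was not called (adjusted p = 0.999, edgeR quasi-likelihood test). It was −1.11 without Zbp1-KO 1 and −0.35 without Zbp1-KO 2. Rbm38, with 21 to 30 counts per library, had a log2 fold change of −0.26 ± 0.83 (SE).

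The wider pathway was described by 72 genes in 8 groups by role, of which 67 were tested. None was called higher or lower in the edgeR quasi-likelihood test, its exact test, DESeq2 or limma-voom. The quasi-likelihood test gave 3 higher and 2 lower genes below an unadjusted p of 0.05, where 1.91% and 1.97% of all genes were. These counts, and those over all genes, changed when WT 1 or either Zbp1-KO library was left out, so they are not compared across such fits. With all 4 libraries the 5 were Ikbkb, Ikbke and Tab3 on the higher side and Traf5 and Bax on the lower side. The median log2 fold change was 0.03, and both Zbp1-KO libraries lay above both WT libraries for 13 and below for 7 of the 67, against 16% and 16.3% of all genes.

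The 20 genes that set ubiquitin and kinase checkpoints on RIPK1, all tested, held the 3 with higher levels. Ikbkb, the IκB kinase subunit that phosphorylates RIPK1 and IκB, measured 50.2 and 43.3 CPM in the WT kidneys, with 71.2 and 69.2 CPM in the knockouts and a log2 fold change of 0.59 ± 0.19 (SE). Ikbke, a kinase related to TBK1, measured 5.95 and 8.72 CPM in the WT kidneys, with 11.2 and 18.1 CPM in the knockouts and a log2 fold change of 0.99 ± 0.37 (SE). For both, each Zbp1-KO library was above each WT library. Tab3, a partner of the kinase TAK1, measured 5.23 and 4.36 CPM in the WT kidneys, with 13.9 and 6.14 CPM in the knockouts. The lowest fold change of the group was that of Tnfaip3, which encodes the deubiquitinase A20, at −1.17 ± 0.75 (SE), where WT 1 was at 12.5 CPM and the other libraries between 1.25 and 5.82 CPM. Over the group, 15 fold changes were above and 5 below 0, against 7366 and 7542 over the 14908 genes tested, and the median was 0.17. Both Zbp1-KO libraries lay above both WT libraries for 4 of the 20 and below for 2, against 16% and 16.3% of all genes.

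Upstream ligands and receptors had 6 of 8 genes tested, with a median of 0.16 and fold changes from −0.26 (Tnfrsf1a, the main TNF receptor) to 1.07 (Tlr4, the endotoxin receptor). Tnf itself had 14 counts in WT 1 and none elsewhere, and Fasl had 4 counts in WT 1 and none elsewhere, so a difference in these death ligands was not detectable at this depth. Of the 4 adaptors, Traf5 measured 17.05 and 12.1 CPM in the WT kidneys, with 9.14 and 6.89 CPM in the knockouts, a log2 fold change of −0.86 ± 0.34 (SE), and Traf2 had the highest fold change, 0.0013. The 12 regulators of the necrosome, of MLKL and of membrane repair had a median of 0.03, from −0.41 (Cdc37, a chaperone partner of HSP90) to 0.95 (Pgam5, a mitochondrial phosphatase).

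Among the 11 apoptotic genes, Bax, the pore former of the mitochondrial outer membrane, measured 34.7 and 48.1 CPM in the WT kidneys, with 26.2 and 30.4 CPM in the knockouts, a log2 fold change of −0.55 ± 0.23 (SE). The highest fold change there was that of Bid, which caspase-8 cleaves, at 0.34 ± 0.27 (SE). Of the 6 inflammasome and pyroptosis genes, 5 were tested, from −0.29 (Gsdme) to 0.46 (Gsdmd), both gasdermin genes. Nlrp3 had 5, 4, 12 and 0 counts and was below the filter. Of the 8 genes for RNA editing, double-stranded RNA sensing and repeat silencing, 7 were tested and Adarb2 had no count. They ran from −0.81 (Adarb1, a second editing enzyme, at 16.2 CPM in WT 2 and 5.60 to 7.002 CPM in the other libraries) to 0.65 (Ifih1, the RNA sensor MDA5). Of the 3 alarmin genes, Hmgb1 and Il33 were tested, both with fold changes below 0, of which that of Il33 was the lower at −0.11 ± 0.49 (SE), and Il1a had 5 counts in WT 1 only.

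**Figure D5:**
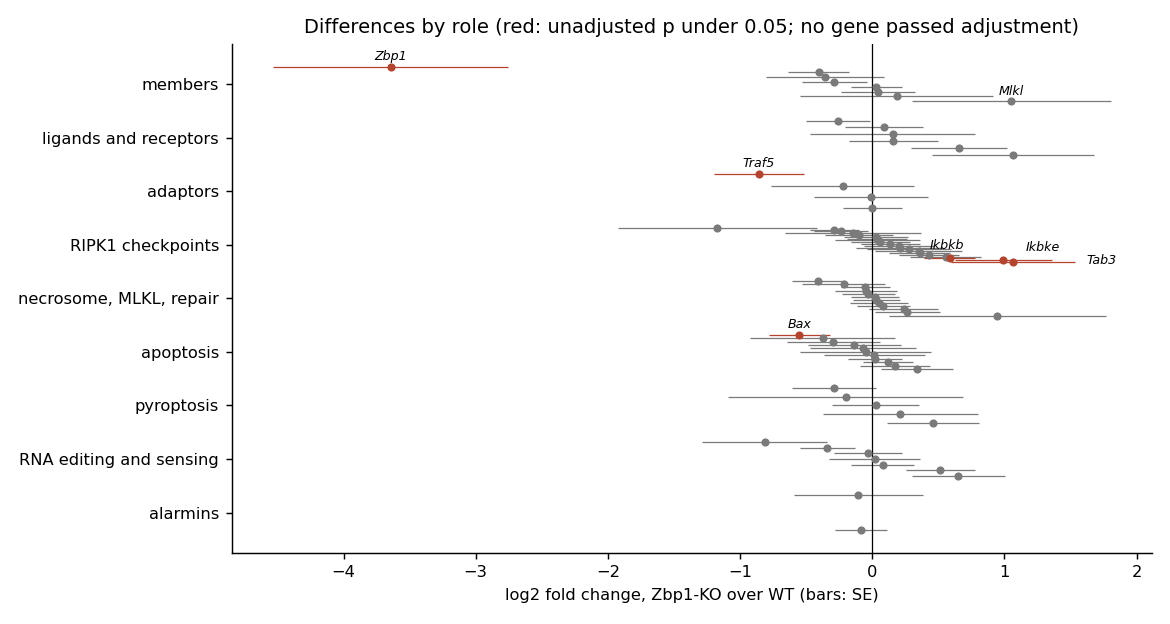
Log2 fold change, Zbp1-KO over WT (horizontal axis), of the 8 genes and of the 67 tested pathway genes by role. Points are genes, bars are SE, and red marks an unadjusted p under 0.05. Apart from Zbp1 at −3.64, points lie between −1.17 and 1.07.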

How the data were processed

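The authors extracted RNA with TRIzol, selected polyadenylated RNA and made TruSeq libraries, which they sequenced as read pairs. Per the labels and the study's methods, reads were trimmed with Trimmomatic, aligned to mm10 with HISAT2, and pairs that mapped uniquely were assigned to genes with featureCounts. Tool versions, annotation release and strand setting are not given in the sources used here. The labels name a TruSeq v2 kit and the methods a strand-specific protocol, so overlapping genes are uncertain. The deposited values are raw whole-number counts per Ensembl gene, 1 file per library. Of 54532 IDs, 54409 matched GENCODE M21 (GRCm38, the same assembly as mm10), which gave symbols, positions and exon lengths.

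For the genotype comparison, the two-sided quasi-likelihood F test of edgeR 4.0.16 was run under R 4.3.3 after filterByExpr (minimum count 10, total 15) and TMM scaling, with genotype as the only term. P-values were adjusted by Benjamini-Hochberg over 14908 genes. SE is the absolute log2 fold change over the square root of F. Log2 CPM used a prior count of 2. Alternatives were other scalings and filters, a block for replicate number, edgeR's exact test, DESeq2 1.42.0, limma-voom (limma 3.58.1), removal of mitochondrially encoded genes, and each library left out in turn, where the lone library is assumed to vary like the pair. The fit was tested on simulated data. Intervals and limits cover counting error only. The labels call the libraries separate mice only by number, so p-values measure the spread between these libraries.

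The 8 genes, the lists and the tests were chosen with earlier results of these data known. Named pathway genes were those with an unadjusted p under 0.05 and the highest and lowest fold change of each group. One gene that the likeness rule named is not reported here.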

Additional observations from a re-analysis of the deposited data

How the results depend on the processing

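With 2 libraries per genotype and few counts for Zbp1, Ripk3, Mlkl and Fadd, small differences could not be detected. With all 4 libraries, 9 alternatives left the sign of every fold change of the 8 genes unchanged. Zbp1 crossed the threshold with all genes of at least 1 count (−3.65, edgeR adjusted p = 2.86e-05) and with the exact test of edgeR (−3.67, adjusted p = 0.0195), where 1 of the 8 was called lower in place of 0, and the cause was not tested. The fold change was −4.64 with limma-voom and −3.77 with DESeq2, where Zbp1 was not called. Its adjusted p ran from 2.86e-05 to 1.00 over the alternatives. With 1 library left out, the log2 fold change of Zbp1 ran from −4.82, a bound, to −2.77, 0 to 1 of the 8 were called lower (1 without Zbp1-KO 1), and the median of the pathway genes ran from −0.080 to 0.13. Fewer libraries enter those fits. The highest values with 1 library left out were 1.34 for Ripk3, 1.77 for Mlkl, 0.12 for Cflar, 0.22 for Adar, 0.21 for Pck1 and 0.057 for Pmepa1. Sign changes, each in a gene that was not called, were Adar (−0.090) and Pmepa1 (−0.016) without WT 1, Ripk3 (−0.45) and Cflar (−0.0067) without WT 2, Mlkl (−0.54) and Pmepa1 (−0.020) without Zbp1-KO 1, and Cflar (−0.057), Adar (−0.14) and Pck1 (−0.043) without Zbp1-KO 2. The other 134 of 143 fold changes of single genes kept their sign. With the replicate number as a block, the log2 fold change of Zbp1 was −3.96 (edgeR adjusted p = 0.196) and 4 genes were called higher and 7 lower over all genes, against 2 and 0. The deviations of libraries with equal replicate numbers had a correlation of 0.00399 over genes. With 2 libraries per genotype, that single value cannot show whether part of the genes shared a batch. Without the filter, 14 genes were called higher and 27 lower over all genes. The exact test called 6 higher and 8 lower, DESeq2 5 and 4, and limma-voom 4 and 3. No scaling moved the median of all genes by more than 0.1.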
